A study of Mus musculus with 4 samples.

Results

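Among single haematopoietic stem cells (HSCs) of mouse bone marrow, a minority carried transcript of H2-Aa, the alpha chain of the MHC class II molecule I-A. A cell counted as H2-Aa-positive with at least 3 counts of H2-Aa, and 69 of the 277 cells used met this. The comparison was with the 176 cells that had 0 counts of H2-Aa, and the other 32 cells, with 1 or 2 counts, were left out of both sides. A further 15 cells in 2 runs of consecutively numbered cells, whose profile stood apart, were not used and are described last. The cells were selected on their measured H2-Aa count, so H2-Aa values are a description and were not tested. All cells came from 8-week-old wild-type mice, of a strain the labels do not name. Marrow was enriched for c-Kit with magnetic beads, and cells of the ESLAM SK phenotype were then sorted: negative for the lineage antigens B220, Gr-1 and TER-119, positive for c-Kit, Sca-1 and CD150, negative for CD48 and positive for EPCR (CD201). Each cell went into its own tube under scatter settings meant to keep doublets out, was barcoded at reverse transcription, and was pooled with others into 1 of 4 libraries. Every library is labelled with both a CD27- and a CD27+ gate, and no source gives the gate of a single cell. The libraries are therefore 4 replicates of 1 group, and both sides of each comparison come from the same libraries.

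MHC class II molecules are pairs of an alpha and a beta chain that show peptides of ingested or internal proteins to CD4 T cells. They are best known from B cells, dendritic cells and macrophages, and class II on mouse blood stem and progenitor cells has also been described. In mouse the I-A molecule is made of the H2-Aa and H2-Ab1 products, and H2-Eb1 encodes the beta chain of the second molecule, I-E. New chains assemble with the invariant chain, the product of Cd74, which is later cut away in endosomes, and the H2-DM molecule then helps exchange its last fragment for a peptide. Transcription of these genes depends on the coactivator CIITA, which is recruited by factors bound to short promoter elements called the X and Y boxes.

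The class II chain genes and H2-DM genes lie near each other on chromosome 17 of the GRCm38 build, while Cd74 lies elsewhere. In GENCODE M21, H2-Aa (ENSMUSG00000036594.15) spans 34282744 to 34287823 on the minus strand, H2-Ab1 spans 34257689 to 34269419 and H2-Eb1 spans 34305867 to 34316674, both on the plus strand. H2-DMa spans 34119541 to 34139101 and H2-DMb1 spans 34153072 to 34160230, both on the plus strand. All are protein coding. H2-Eb1 overlaps the antisense gene Gm20513 and H2-DMa overlaps Brd2 on the other strand, and whether strand was used in counting is not stated. H2-DMb1 and H2-DMb2 are near copies, so counts of either are uncertain. The 120 bases before the start site are shown for 3 of the genes, each with a match to X or Y box letters in this window. The sequences come from RefSeq on GRCm38.p6, read 5′ to 3′ on the strand of the gene, with capitals marking GATTGG, the core of the Y box, its reverse complement, and AACNGAT, letters within the X box, where N is any base.
H2-Aa, chr17:34287824-34287943, minus strand: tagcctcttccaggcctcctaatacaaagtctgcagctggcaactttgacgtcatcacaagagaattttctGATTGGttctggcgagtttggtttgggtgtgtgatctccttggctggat
H2-Eb1, chr17:34305747-34305866, plus strand: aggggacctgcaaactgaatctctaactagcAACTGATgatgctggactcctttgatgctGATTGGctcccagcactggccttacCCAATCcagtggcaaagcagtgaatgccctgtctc
H2-DMb1, chr17:34153071-34153190, plus strand: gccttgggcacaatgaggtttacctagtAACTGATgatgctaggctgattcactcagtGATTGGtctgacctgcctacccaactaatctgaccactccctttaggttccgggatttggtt
The Y box core begins 49 bases before the RefSeq start of H2-Aa, 60 before that of H2-Eb1 and 62 before that of H2-DMb1. For H2-DMb1 this start lies downstream of the GENCODE start at 34153072. Nearly all of its window is therefore inside the GENCODE span given above, and its distances hold for the RefSeq start only. H2-Eb1 holds a second core on the other strand, and the X box letters begin 89 bases before the start of H2-Eb1 and 92 before that of H2-DMb1. These X box letters do not occur in the window of H2-Aa, but a search for 1 short string cannot show that an X box is absent. Of 32851 RefSeq promoter windows, searched on both strands from 250 bases before to 50 bases after the start, 16.1% hold GATTGG, 6.94% hold AACNGAT and 1.10% hold both. The 2 motifs can share the bases GAT but do not overlap in the windows shown. A match to these letters is a description of the sequence and not evidence of binding. H2-DMa, not shown, has 2 start sites in RefSeq, and the X box letters were found at neither. Its first site had no Y box core, and at its second a core began 199 bases before the start, outside the 120 bases. Promoters of H2-Ab1, Cd74 and Ciita were not examined here.

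H2-Aa-positive cells were found in every library. They made up 21 of 74, 19 of 67, 15 of 71 and 14 of 65 cells in libraries 1 to 4. These are 28.4% (95% exact binomial interval 18.5 to 40.1), 28.4% (18.01 to 40.7), 21.1% (12.3 to 32.4) and 21.5% (12.3 to 33.5), with a mean of 24.9% ± 4.07 (SD, n = 4 libraries). The 4 intervals overlap widely. Within the positive cells H2-Aa ran from 3 to 378 counts, with a median of 42 and quartiles of 25 and 78, and from 23.6 to 5350 CPM (counts per 1000000 counts of the cell), with a median of 373. Few cells lay near the limit: 1 cell each had 3, 5, 7 and 10 counts, while just below it 27 cells had 1 count and 5 had 2. Summed over the positive cells of a library, H2-Aa stood at 513, 634, 607 and 374 CPM in libraries 1 to 4, against 0 by choice in the cells of the other side. The single highest positive cell gave between 14.1% and 35.2% of the H2-Aa counts of its library.

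Depth per cell was somewhat greater on the positive side. The summed cells held 1149805 to 2876290 counts per library in H2-Aa-positive cells and 3289503 to 6395344 counts in cells with 0. Median counts per cell were 110926, 132652, 70147 and 212352 in the H2-Aa-positive cells of libraries 1 to 4 and 88722.5, 86690, 65130.5 and 142675 in the cells with 0. The positive side was higher in 4 of 4 libraries, and an exact sign flip test over 4 libraries cannot pass the threshold of 0.05. Median genes detected were 3142 ± 254 in H2-Aa-positive cells and 2915 ± 235 in cells with 0 (SD, n = 4), higher in 3 of 4 libraries. With every cell thinned to 30000 counts and sorted again by its thinned H2-Aa, the medians were 2699 ± 122 genes in positive cells and 2614 ± 106 in cells with 0, and the share of positive cells was 23.8% ± 4.07. Mitochondrially encoded counts made up 1.37% of a median positive cell and 1.40% of a median cell with 0. Reads are not stated to have been collapsed by molecular identifier, so counts can include PCR copies. The intervals of the shares cover only the sampling of cells within a library. The labels do not say that the libraries came from separate mice, so p-values rest only on variation among these 4 libraries, which may be technical. Each test also pools that variation over genes, so a p-value does not measure the spread of its own gene alone.

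The other chains and the invariant chain stood higher in H2-Aa-positive cells in each of the 4 libraries, by amounts that differed among libraries. For H2-Ab1 the gap was widest in library 3 and narrowest in library 4. H2-Ab1, the beta chain partner of H2-Aa, stood at 282, 270, 495 and 147 CPM in the positive cells of libraries 1 to 4 and at 42.7, 15.8, 7.85 and 76.8 CPM in the cells with 0. The lowest positive value lay above the highest value of the cells with 0. The means were 299 ± 144 CPM in positive cells and 35.8 ± 31.1 CPM in cells with 0 (SD, n = 4), a log2 fold change of 3.36 ± 0.71 (SE). H2-Eb1, the beta chain of I-E, stood at 106, 265, 185 and 134 CPM in positive cells, against 47.8, 51.1, 8.66 and 46.8 CPM in cells with 0, a log2 fold change of 2.27 ± 0.47. These groups did not overlap either, and the value of library 3 was far below the others among the cells with 0. Cd74, the invariant chain (60803848 to 60812652 of chromosome 18, plus strand), stood at 1111, 836, 1979 and 467 CPM in positive cells and at 409, 227, 67.6 and 156 CPM in cells with 0, a log2 fold change of 2.32 ± 0.75. It did not overlap between the sides, but 1 cell gave 73.0% of the Cd74 counts of the cells with 0 in library 1. Among positive cells of that library 1 cell gave 48.2%.

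**Figure D1:**
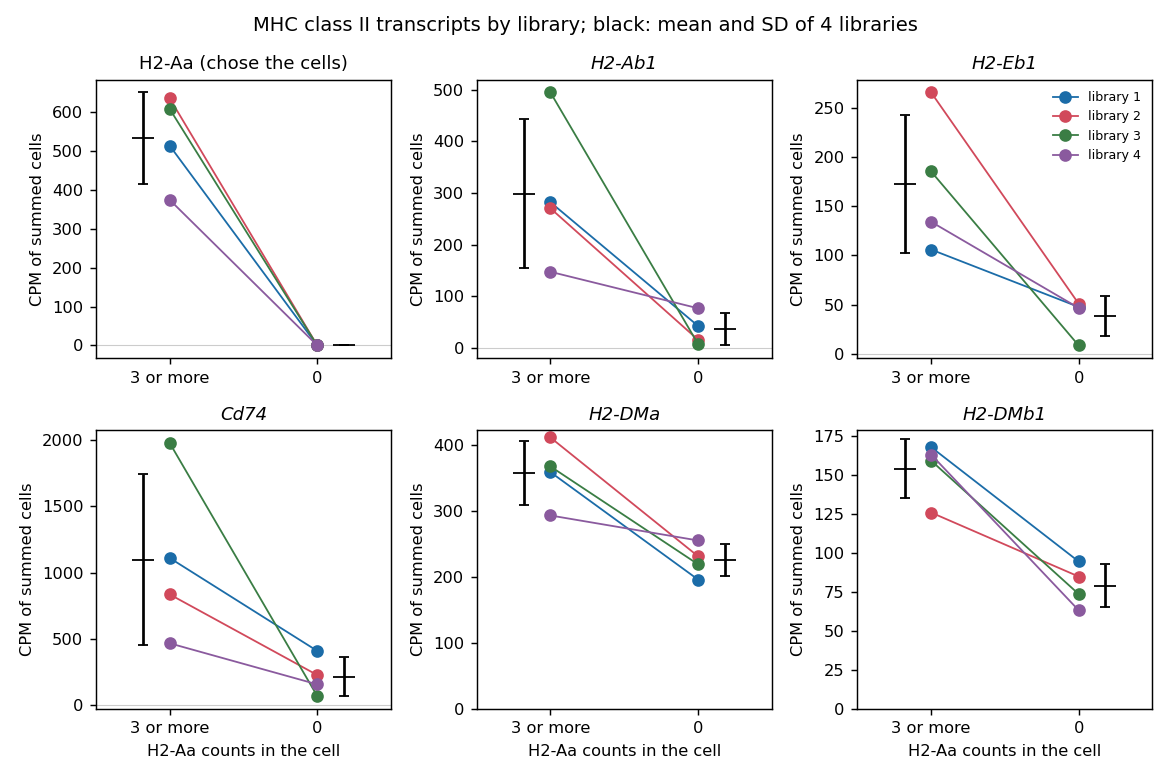
Level of 6 MHC class II genes in each library, in CPM of summed cells (vertical axis), for cells with 3 or more H2-Aa counts (left) and cells with 0 (right). A line joins the sides of a library and black bars are the mean and SD of 4 libraries. H2-Aa chose the cells, and each of the other 5 genes is higher on the left in 4 of 4 libraries, with H2-Ab1 between 147 and 495 CPM on the left and between 7.85 and 76.8 CPM on the right.

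Both chains of H2-DM, which loads peptide onto class II, were also higher on the positive side, by less. H2-DMa stood at 358, 411, 367 and 293 CPM in H2-Aa-positive cells and at 196, 231, 219 and 255 CPM in cells with 0, a log2 fold change of 0.66 ± 0.19. H2-DMb1 stood at 168, 126, 159 and 163 CPM in positive cells, against 94.5, 84.8, 73.6 and 63.2 CPM in cells with 0, a log2 fold change of 0.97 ± 0.28. Neither gene overlapped between the sides. H2-DMa was common among the cells with 0 too, at 3 counts or more in 90 of 176. The log2 fold change of H2-DMa was 0.38 with cells of 1 or 2 H2-Aa counts added to the positive side.

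The planned test, edgeR's quasi-likelihood test on counts summed per library and side with library as a block, called no gene at an adjusted p under 0.05. It gave 0 of 11028 genes (0%), the lowest adjusted p was 0.999, and 344 genes (3.12%) had an unadjusted p under 0.05, of which 105 were higher (0.952%) and 239 lower in positive cells. Unadjusted p was 0.00024 for H2-Eb1, 0.00081 for H2-Ab1, 0.0036 for H2-DMa, 0.0041 for H2-DMb1 and 0.037 for Cd74, each higher in 4 of 4 libraries (edgeR). A gene that moves in 4 of 4 libraries is not rare by itself: 462 genes (4.19%) were higher in positive cells in 4 of 4, 113 (1.02%) were higher with no overlap between the sides, and 283 (2.57%) were lower with no overlap. Genes lower in 4 of 4 were not counted. All 5 of these class II genes belong to the 113. Other tests run on the same cells did call class II genes. limma on the mean over cells of log2(CPM + 10), in which every cell weighs the same, called 4 genes of 11028 (0.0363%), all higher in positive cells, and 0 lower. They were Cd74 (log2 difference 3.17, adjusted p 2.42e-16), H2-Ab1 (2.76, adjusted p 2.8e-12), H2-Eb1 (1.86, adjusted p 2.4e-06) and H2-DMa (1.64, adjusted p 0.00054), and 393 genes higher and 198 lower had an unadjusted p under 0.05. These p-values rest on variances pooled over genes (eBayes) and not on the spread of each gene. For H2-Ab1 the means in libraries 1 to 4 were 6.56, 6.20, 7.84 and 5.91 in positive cells. In cells with 0 they were 3.90, 3.65, 3.52 and 4.42. DESeq2 called 80 genes (0.725%), 19 higher (0.172%) and 61 lower (0.553%) in positive cells. Among the higher genes were H2-Eb1 (adjusted p 0.00213), H2-DMb1 (0.0123), H2-DMa (0.0191) and H2-Ab1 (0.0293) but not Cd74 (0.0817). edgeR on cells thinned to 30000 counts called H2-Eb1 alone (adjusted p 0.010), 0.0104% of 9581 genes. edgeR without library 3 called Cd74 alone (log2 fold change 1.61, adjusted p 0.0041), and without library 4 called H2-Ab1 alone (4.18, adjusted p 0.018).

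**Figure D2:**
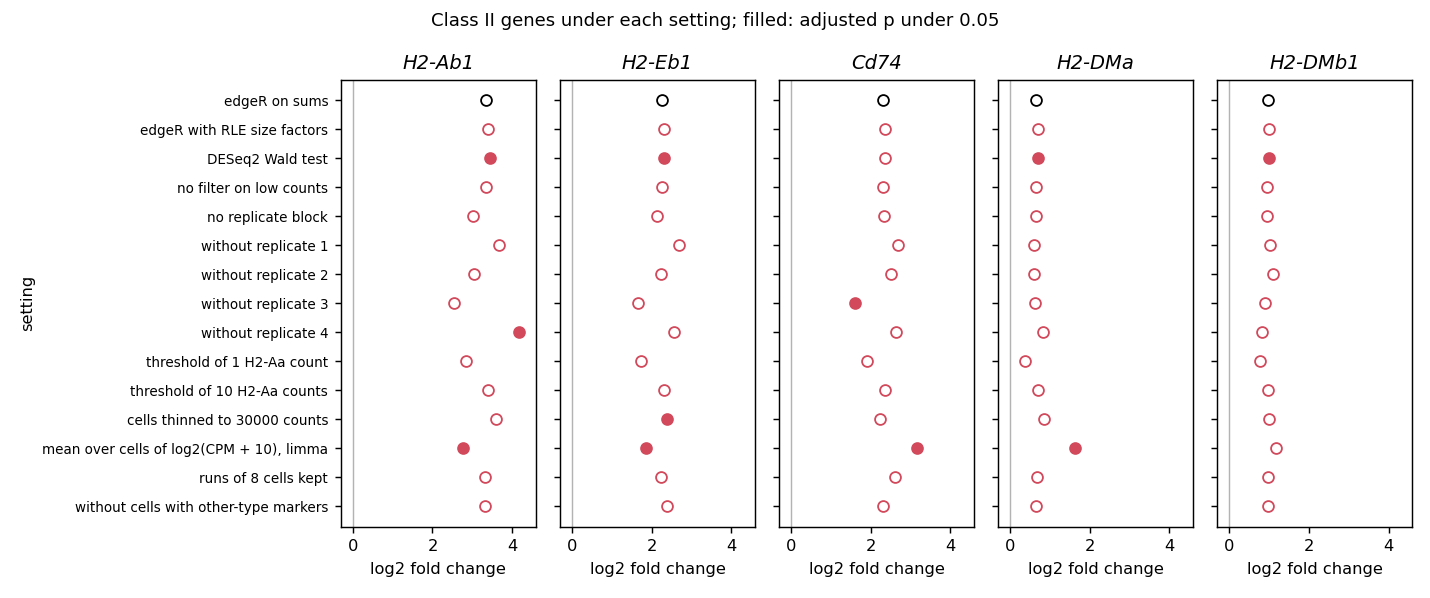
Log2 fold change (horizontal axis) of 5 class II genes, cells with 3 or more H2-Aa counts over cells with 0, under the planned test (top row, black) and 14 other settings (red, each row). A filled circle has an adjusted p under 0.05. Every point lies above 0, H2-Ab1 between 2.55 and 4.18 and Cd74 between 1.61 and 3.17, while few are filled.

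Across all 15 fits of these 5 genes the direction was the same and the adjusted p was not. It ran from 2.8e-12 to 1 for H2-Ab1, from 2.4e-06 to 1 for H2-Eb1, from 2.42e-16 to 1 for Cd74, from 0.00054 to 1 for H2-DMa and from 0.012 to 1 for H2-DMb1 (edgeR, DESeq2 and limma). The limma and DESeq2 calls and the planned test were run on the same 4 libraries, so they are not independent of each other.

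Cell by cell, the class II transcripts were found together in a part of the H2-Aa-positive cells. H2-Ab1 had at least 3 counts in 43 of 69 positive cells, against 13 of 176 cells with 0. By library the shares were 61.9%, 52.6%, 80.0% and 57.1% in positive cells and 8.33%, 2.94%, 1.92% and 16.7% in cells with 0. H2-Eb1 had at least 3 counts in 30 of 69 positive cells and in 13 of 176 cells with 0. Cd74 was broader, in 57 of 69 positive cells but also in 52 of 176 cells with 0. H2-DMa was found in 57 of 69 positive cells and 90 of 176 cells with 0, and H2-DMb1 in 41 of 69 and 57 of 176. All of H2-Ab1, H2-Eb1 and Cd74 were present at 3 counts in 24 of 69 positive cells and in 3 of 176 cells with 0. None of them was present in 8 of 69 positive cells and in 112 of 176 cells with 0. Thus 61 of 69 positive cells held at least 1 of these 3 transcripts, most often Cd74.

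Thinning to equal depth left these shares close to what they were. As means over libraries, H2-Ab1 was at 3 counts in 61.0% ± 12.0 of thinned positive cells and 7.28% ± 6.83 of thinned cells with 0, against 62.9% ± 12.0 in positive cells and 7.47% ± 6.75 in cells with 0 as deposited (SD, n = 4). Cd74 stood at 76.3% ± 1.81 in thinned positive cells and 25.6% ± 7.13 in thinned cells with 0, and at 83.2% ± 6.50 and 30.5% ± 7.63 on the same sides as deposited. H2-DMa stood at 81.0% ± 3.62 in thinned positive cells and 46.9% ± 3.89 in thinned cells with 0. For each of the 5 genes the share was higher in positive cells in 4 of 4 libraries, thinned and not.

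**Figure D3:**
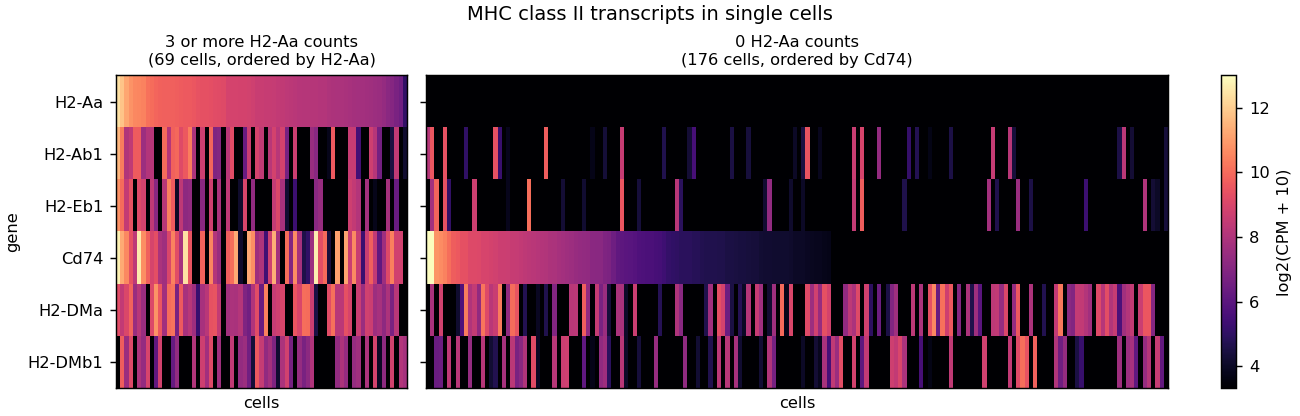
Level of 6 class II genes (rows) in single cells (columns) on a log2(CPM + 10) scale, for 69 cells with 3 or more H2-Aa counts, ordered by H2-Aa (left), and 176 cells with 0, ordered by Cd74 (right). H2-Ab1 and H2-Eb1 are dark in most cells on the right, where each has 3 counts or more in 13 cells, and Cd74 is bright in a part of them.

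Levels varied widely among the positive cells. Over the 69 cells H2-Ab1 had a median of 179 CPM, quartiles of 0 and 409 and a highest value of 2911, while its median in cells with 0 was 0 CPM. Cd74 had a median of 428 CPM, quartiles of 172 and 1395 and a highest value of 6718 in positive cells, and a median of 6.25 CPM in cells with 0. The highest Cd74 of all, at 9679 CPM, was in a cell with 0 H2-Aa counts. H2-Eb1 had a median of 6.07 CPM in positive cells and 0 CPM in cells with 0. Among positive cells the amount of H2-Aa followed that of the other chains loosely, with a mean Spearman rho over the 4 libraries (21, 19, 15 and 14 cells) of 0.42 with H2-Ab1, 0.43 with H2-Eb1 and 0.14 with Cd74. H2-Ab1 and H2-Eb1 had a mean rho of 0.54 with each other. These values are descriptions across cells that share a library and its depth.

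Over all cells of a library, 74, 67, 71 and 65 of them, the genes whose CPM ranked most like that of H2-Aa were again class II genes. Of 7878 genes with a count in at least 10% of cells, H2-Ab1 came first with a mean rho of 0.45 ± 0.22 (SD over 4 libraries), Cd74 next with 0.43 ± 0.048 and H2-Eb1 next with 0.37 ± 0.086. Siah1b, a ubiquitin ligase gene, followed at 0.27 ± 0.092 and Lasp1, a gene of an actin-binding LIM and SH3 protein, at 0.25 ± 0.14. H2-DMa came just after them with 0.23. These are descriptions, and the cells of a library share its preparation and range of depth.

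The remaining loading and processing genes were mixed in direction. Of the 12 tested genes for loading and the invariant chain, 8 had a log2 fold change above 0, with a median of 0.51, against a median of -0.17 and 37.8% above 0 over all 11028 genes. None was called, and 3 had an unadjusted p under 0.05 (Cd74, H2-DMa and H2-DMb1). Ctss, the cathepsin that trims the invariant chain in professional antigen-presenting cells, stood at 53.2 ± 28.5 CPM in H2-Aa-positive cells and 29.3 ± 24.3 CPM in cells with 0 (log2 fold change 1.48 ± 0.78, unadjusted p 0.079, edgeR). In library 3 the cells with 0 held 2 counts of Ctss, and the log2 fold change was 0.66 without that library, 0.86 without the library block and 0.36 in the mean over cells (limma). Ctsl, the cathepsin known for that step in thymic epithelium, stood at 172 ± 49.5 CPM in positive cells and 231 ± 51.1 CPM in cells with 0, and Ctsb, a general lysosomal cathepsin, at 461 ± 37.4 and 431 ± 28.7 CPM on the same sides. H2-Oa, a chain of the H2-O molecule that restrains H2-DM, stood at 7.11 ± 5.83 CPM in positive cells and 18.7 ± 8.03 CPM in cells with 0 (log2 fold change -1.85 ± 1.47). Its partner H2-Ob had 12.9 ± 11.2 CPM in positive cells and 7.87 ± 7.31 CPM in cells with 0. H2-DMb2 stood at 12.99 ± 14.2 CPM in positive cells and 7.35 ± 5.54 CPM in cells with 0. Lgmn, a lysosomal protease gene, Cd83, whose product keeps class II at the surface, and March8, a ubiquitin ligase gene that acts on class II, had 3 counts in 1, 1 and 3 positive cells and in 1, 4 and 5 cells with 0, too few for a comparison.

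Of the factors that act on class II promoters none was called, and most were detected in few cells. Of 13 tested genes of class II transcription 3 had a log2 fold change above 0 on the sums, with a median of -0.55. In the mean over cells (limma) 4 were above 0, with a median of -0.056. Ciita, the coactivator gene, had a count in 2 of 69 H2-Aa-positive cells and in 4 of 176 cells with 0, too few for a comparison. Its CPM was 10.7, 0, 39.1 and 0 in positive cells of libraries 1 to 4 and 1.92, 0, 5.68 and 2.50 in cells with 0. Nfyb, a subunit of the NF-Y factor that binds the Y box, was the gene with the lowest unadjusted p, at 34.4, 21.2, 12.2 and 57.0 CPM in positive cells and 65.3, 68.4, 74.4 and 69.0 CPM in cells with 0 (log2 fold change -1.34 ± 0.52, p 0.021, edgeR, not called). The other NF-Y genes Nfya and Nfyc had log2 fold changes of -0.38 ± 1.43 and -1.46 ± 1.13. Of the RFX factor that binds the X box, Rfxank stood at 22.5 ± 12.1 CPM in positive cells and 31.6 ± 13.05 CPM in cells with 0, and Rfxap at 5.76 ± 6.49 and 14.8 ± 3.41 CPM on the same sides. The related gene Rfx1 had 3 counts in 0 positive cells and 7 cells with 0. Creb1 and Atf1, genes of factors of the CREB family, had log2 fold changes of -0.30 ± 0.54 and -0.65 ± 0.43. Spi1 (PU.1) stood at 185 ± 47.7 CPM in positive cells and 191 ± 37.0 CPM in cells with 0. Irf1, which takes part in interferon gamma induction of Ciita, stood at 221 ± 112 CPM in positive cells and at 219 ± 116 CPM in cells with 0. Irf8 had 3 counts in 3 positive cells and 10 cells with 0.

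Most MHC class I genes had log2 fold changes a little above 0. Of 23 tested class I and peptide loading genes 19 had a log2 fold change above 0, with a median of 0.22, against -0.024 and 46.2% above 0 over the 1934 genes of at least 100 CPM, and -0.17 and 37.8% over all genes. None was called, and 4 had an unadjusted p under 0.05, all higher. B2m, the light chain of class I, stood at 11566 ± 1720 CPM in H2-Aa-positive cells and 10934 ± 637 CPM in cells with 0, and H2-K1, a heavy chain, at 4761 ± 443 CPM in positive cells and 4444 ± 456 CPM in cells with 0. H2-D1, the other classical heavy chain, had a log2 fold change of 0.22 ± 0.10, and the non-classical H2-T22 of 0.91 ± 0.35, with 119, 163, 168 and 122 CPM in positive cells and 97.5, 81.8, 39.8 and 95.4 CPM in cells with 0. Psmb9, an immunoproteasome subunit, and Psme2, a proteasome activator subunit, had log2 fold changes of 0.52 ± 0.18 and 0.50 ± 0.20, both higher in 4 of 4 libraries. Of 34 tested interferon response genes 19 were above 0, with a median of 0.015. Members of that list differed in direction. Irf9, a subunit of the interferon-activated factor ISGF3, stood at 210, 252, 203 and 192 CPM in positive cells and 111, 126, 88.2 and 153 CPM in cells with 0 (log2 fold change 0.86 ± 0.25, unadjusted p 0.0034, edgeR). Igtp, an interferon-induced GTPase gene, had a log2 fold change of 0.95 ± 0.31. Ifit3, an interferon-induced gene, was lower in positive cells, with 0, 32, 0 and 0 counts in libraries 1 to 4, against 22, 313, 36 and 130 counts in cells with 0 (unadjusted p 0.0042). Cxcl10, a chemokine gene, had 0, 3, 0 and 0 counts in positive cells and 0, 563, 44 and 0 counts in cells with 0 (unadjusted p 0.0028). Its counts lay mostly in library 2, where 2.94% of the 34 cells with 0 had 3 counts. None of these genes was called by edgeR. Of 7 tested costimulatory genes 3 were above 0, with a median of -0.69 on the sums and 0.0052 in the mean over cells (limma). None was called.

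Outside class II, the genes with the lowest unadjusted p, none of them called by the planned test, were mixed. Lasp1 stood at 141, 121, 73.9 and 123 CPM in H2-Aa-positive cells and at 39.0, 19.5, 39.0 and 42.5 CPM in cells with 0, a log2 fold change of 1.73 ± 0.40 (unadjusted p 0.00066, edgeR). It had 3 counts in 33 of 69 positive cells and 43 of 176 cells with 0, and the sides did not overlap. Serpina3f, a serine protease inhibitor gene, stood at 172, 223, 149 and 50.8 CPM in positive cells and 83.2, 109, 39.5 and 33.3 CPM in cells with 0 (1.14 ± 0.32). Siah1b, named for its likeness, stood at 45.6, 36.1, 55.7 and 28.9 CPM in positive cells and 1.49, 15.5, 5.95 and 6.10 CPM in cells with 0 (2.84 ± 1.00, unadjusted p 0.013, edgeR). Siah1b was picked for following H2-Aa over these same cells. A difference between the sides was thus largely set by that choice, and its p-values and calls are no independent support. The lower genes were 0610037L13Rik, at 43.1 ± 22.9 CPM in positive cells and 118 ± 15.9 CPM in cells with 0, and Ikbip, at 14.5 ± 7.86 and 70.2 ± 16.6 CPM on the same sides. Hipk1, a nuclear kinase gene, stood at 34.6 ± 29.0 CPM in positive cells and 93.3 ± 23.1 CPM in cells with 0, and Impact, a regulator of the eIF2 kinase GCN2, at 64.2 ± 20.1 and 137 ± 18.3 CPM on the same sides. Cd69, an early activation antigen, was at 0.465, 40.3, 0 and 32.7 CPM in positive cells and 31.6, 83.9, 31.4 and 157 CPM in cells with 0. By cells Cd69 was about as frequent on both sides, with 3 counts in 4 of 69 positive cells (5.80%) and 13 of 176 cells with 0 (7.39%). Its difference in the mean over cells was -0.12 (limma, unadjusted p 0.47). DESeq2 called Lasp1, Serpina3f, Irf9 and Siah1b as higher and the 5 others as lower (adjusted p 0.0020, 0.015, 0.017 and 0.016 for the first 4), and limma on the mean over cells called none of these 9.

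The H2-Aa-positive cells carried the transcripts that define HSCs, and where these differed on the sums at an unadjusted p under 0.05 (edgeR) they were lower. Of 30 tested HSC identity genes 13 had a log2 fold change above 0, with a median of -0.17, against -0.17 over all genes tested and -0.024 over those of at least 100 CPM. None was called, and 4 of the 30 had an unadjusted p under 0.05, all lower (edgeR): Procr, Ifitm1, Ndn and Nkx2-3. Over all 11028 genes 239 were lower at that limit, and 62 of the 1934 genes of at least 100 CPM. Ndn, which encodes necdin, a growth suppressor found in HSCs, stood at 98.1, 67.3, 88.7 and 84.1 CPM in positive cells and at 129, 174, 116 and 126 CPM in cells with 0, lower in 4 of 4 libraries (log2 fold change -0.68 ± 0.30, unadjusted p 0.040, edgeR). It had 3 counts in 21 of 69 positive cells and 81 of 176 cells with 0. On the sums only 37.8% of all genes tested had a log2 fold change above 0, and genes lower in 4 of 4 were not counted. Being lower in 4 of 4 libraries therefore cannot be read as unusual. Nkx2-3, a homeobox gene, stood at 175, 180, 104 and 77.5 CPM in positive cells and 166, 232, 187 and 190 CPM in cells with 0, lower in 3 of 4 (-0.61 ± 0.27, unadjusted p 0.040). Hlf, a transcription factor gene of HSCs, stood at 376 ± 31.1 CPM in positive cells and 375 ± 28.2 CPM in cells with 0 (log2 fold change 0.00 ± 0.16), and Mecom, another, at 226 ± 53.1 CPM in positive cells and 267 ± 38.3 CPM in cells with 0. Pdzk1ip1, a membrane protein gene of HSCs, stood at 762 ± 92.5 CPM in positive cells and 840 ± 148 CPM in cells with 0. Ifitm1, which led the list by level, stood at 2814 ± 189 CPM in positive cells and 3244 ± 309 CPM in cells with 0, lower in 4 of 4 libraries (-0.20 ± 0.08, unadjusted p 0.017). Ifitm3, next by level, went the other way, at 1997 ± 301 CPM in positive cells and 1787 ± 166 CPM in cells with 0. It was higher in 3 of 4 libraries (0.15 ± 0.10, unadjusted p 0.16, edgeR). Of the sorting antigens, Ly6a (Sca-1) stood at 669 ± 71.8 CPM in positive cells and 640 ± 19.2 CPM in cells with 0, and Kit at 216 ± 65.2 and 190 ± 36.4 CPM on the same sides. Procr (EPCR) stood at 278, 274, 204 and 114 CPM in positive cells and 273, 423, 271 and 282 CPM in cells with 0 (-0.58 ± 0.23, unadjusted p 0.022, not called), and Slamf1 (CD150) at 44.2 ± 43.0 CPM in positive cells and 64.8 ± 24.6 CPM in cells with 0. By cells Procr was not rarer on the positive side, with 3 counts in 51 of 69 positive cells and 117 of 176 cells with 0. Its difference in the mean over cells was -0.10 (limma, unadjusted p 0.74). Cd48 had no count in any positive cell. Cd27, the antigen of the gates, stood at 145, 203, 249 and 81.0 CPM in positive cells and 196, 229, 218 and 153 CPM in cells with 0, a log2 fold change of -0.34 ± 0.24 (unadjusted p 0.19, edgeR), and the sides overlapped. It had 3 counts in 32 of 69 positive cells and 88 of 176 cells with 0.

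**Figure D4:**
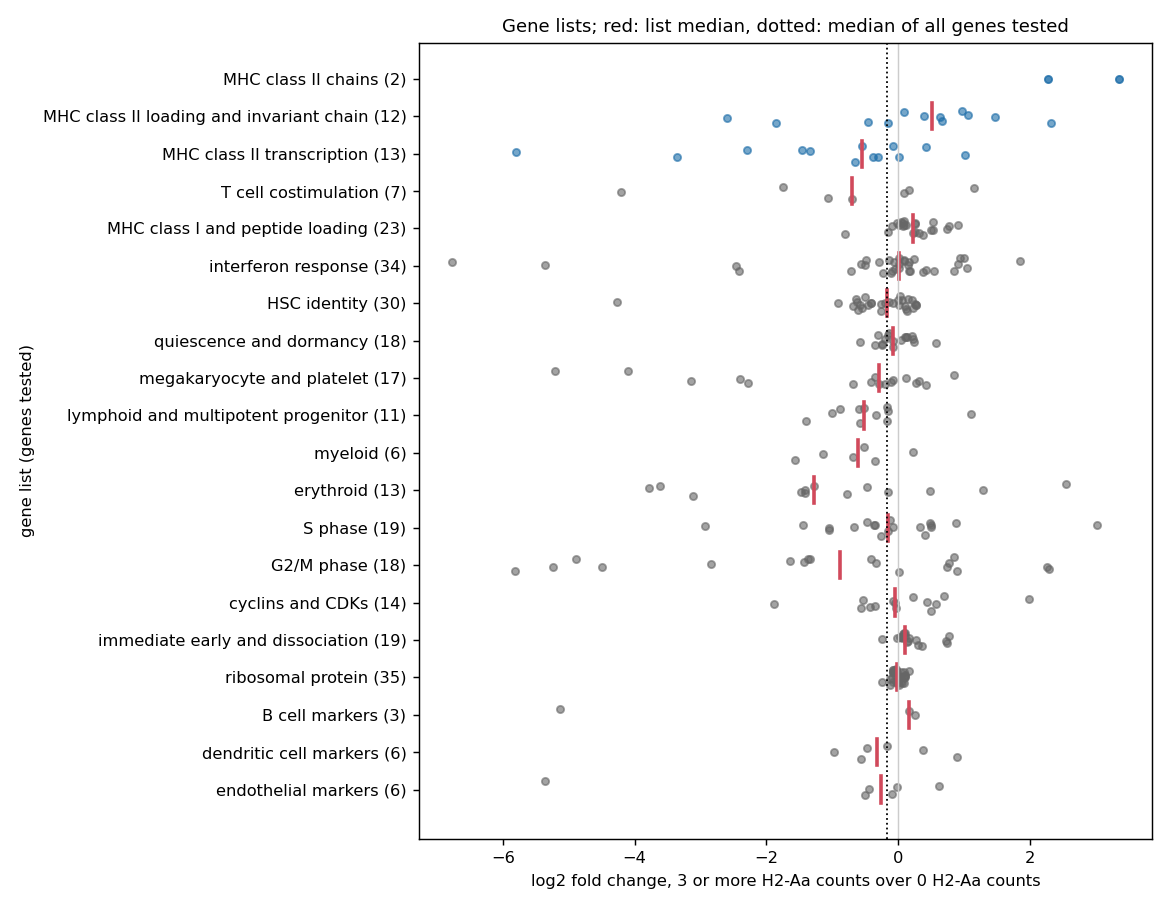
Log2 fold change (horizontal axis), cells with 3 or more H2-Aa counts over cells with 0, of each tested gene (points) in 20 gene lists (rows, number tested in brackets). Red bars are list medians, the dotted line is the median of all genes tested, -0.17, and blue rows are the class II lists. The 2 chain genes lie at 2.27 and 3.36, while the HSC identity median is -0.17 and the interferon response median 0.015.

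Other programs gave no called gene either, and their medians on the sums can be read against the -0.17 of all genes. Of 18 dormancy genes 8 were above 0, with a median of -0.079: Apoe stood at 1773 ± 62.1 CPM in H2-Aa-positive cells and 1614 ± 169 CPM in cells with 0, and Txnip at 1299 ± 182 and 1417 ± 143 CPM on the same sides. Of 17 megakaryocyte and platelet genes 5 were above 0, with a median of -0.29, and Pf4, a platelet chemokine gene, stood at 31.0 ± 31.3 CPM in positive cells and 99.7 ± 38.6 CPM in cells with 0 (log2 fold change -2.27 ± 0.84, unadjusted p 0.018). Of 11 lymphoid genes 1 was above 0 (median -0.52), of 6 myeloid genes 1 (-0.60) and of 13 erythroid genes 3 (-1.27). Lyz2, lysozyme, stood at 775 ± 119 CPM in positive cells and 980 ± 68.6 CPM in cells with 0, lower in 4 of 4 libraries (-0.35 ± 0.12, unadjusted p 0.011). The share of all genes lower in 4 of 4 was not counted. Of 19 S phase genes 7 were above 0 (median -0.15) and of 18 G2/M phase genes 7 (-0.87). In the mean over cells (limma) these low medians did not recur. They were -0.030 for erythroid, 0.024 for G2/M, 0.020 for myeloid, -0.027 for lymphoid and 0.049 for platelet genes, against 0.028 for all genes. By that measure 13 of 18 G2/M and 11 of 17 platelet genes were above 0. Low medians on the sums therefore do not show that these programs were lower cell by cell. Mcm6, a replication helicase gene, stood at 210 ± 20.6 CPM in positive cells and 155 ± 50.7 CPM in cells with 0 (unadjusted p 0.049), and Chaf1b, a chromatin assembly gene, at 130 ± 52.8 and 67.2 ± 14.1 CPM on the same sides (0.015). Of 19 immediate early genes, which respond to stimulation and dissociation, 17 were above 0 (median 0.11), against 46.2% of genes of at least 100 CPM. The 2 with an unadjusted p under 0.05 were both higher, in 3 of 4 libraries each: Ier2, with a log2 fold change of 0.30 ± 0.12 (p 0.024), and Ier3, with 0.72 ± 0.26 (p 0.015, edgeR, neither called). Jun had a log2 fold change of 0.08 ± 0.08 on the sums and a difference of 0.35 in the mean over cells (limma, unadjusted p 0.0015, not called). Fos stood at 4599 ± 1285 CPM in positive cells and 4560 ± 795 CPM in cells with 0. Their sum was between 16390 and 22200 CPM in positive cells and between 14670 and 22530 CPM in cells with 0. Ribosomal protein genes had a median of -0.013.

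Defining markers of the classical class II cell types were at or near 0 in the H2-Aa-positive cells. Ms4a1 and Pax5 of B cells, Xcr1 and Siglech of dendritic cells and C1qb of macrophages had 3 counts in 0 of 69 positive cells, which allows up to 4.35% of cells with such counts and sets no limit on cells of those types, and Clec9a of dendritic cells in 1. Among the 176 cells with 0 they had 3 counts in 0, 0, 1, 1 and 2 cells, and Clec9a in 3. Cells with any marker of these types that was examined numbered 1 of 69 positive cells and 8 of 176 cells with 0, and without these 9 cells H2-Ab1 had a log2 fold change of 3.32 and Cd74 of 2.31. The other markers Cd79a, Itgax, Adgre1 and C1qa, were not analysed here. The 8 B cell genes in the table summed to between 91.1 and 151 CPM in positive cells and between 95.8 and 114 CPM in cells with 0, most of it Cd79b, with 4 genes at 0 in positive cells. The 10 dendritic cell genes summed to between 885 and 1207 CPM in positive cells and between 1041 and 1155 CPM in cells with 0, most of it Cst3 and Bst2, with 3 genes at 0. The 6 macrophage and monocyte genes summed to between 0.415 and 52.1 CPM in positive cells and between 12.6 and 26.1 CPM in cells with 0, with 4 genes at 0. Cd14 had 3 counts in 3 positive cells and in 0 cells with 0. The 5 T and NK cell genes, most of it Klrb1c, summed to between 26.1 and 145 CPM in positive cells and between 32.7 and 117 CPM in cells with 0, with 2 genes at 0.

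Cells outside both sides carried little H2-Ab1. In the 32 cells with 1 or 2 counts of H2-Aa, H2-Ab1 stood at 28.5 CPM and Cd74 at 163 CPM over their summed counts, and 2 of 32 had 3 counts of H2-Ab1. Another 15 cells lay in 2 runs of consecutively numbered cells, in libraries 2 and 4, and were not used, with a median of 1816 genes per cell against 3001 in the cells used. In these runs 9 cells had at least 3 H2-Aa counts and 6 had 0. The 9 cells had 1570 CPM of H2-Aa and 2971 CPM of Cd74 but 3.42 CPM of H2-Ab1, with 0 of 9 cells at 3 counts. With the runs kept the share of positive cells was 26.6% ± 4.07, H2-Ab1 had a log2 fold change of 3.33 and Cd74 of 2.6.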

How the data were processed

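Single ESLAM SK cells of 4 libraries were profiled by a 3′-end single-cell method (STRT-seq). The deposited table holds raw whole-number counts of each gene in each cell, not normalized by the authors. The submitters' processing notes name HTSeq 0.9.1, HISAT2 2.1.0 and Trimmomatic 0.36 beside the GRCm38 build. Whether molecular identifiers or strand entered the counting is not stated in the sources used here. The table held 13742 genes and 297 cells. Cells were kept with at least 10000 counts and 1000 genes (292 cells), and 15 kept cells of 2 runs of 8 consecutive cells were left out, leaving 277 with 14613 to 346876 counts and 1172 to 5821 genes. No cell name occurred in more than 1 library. No doublet caller was run, since sorting was 1 cell per tube. Each cell took its library from its name.

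Counts were summed per library and side (at least 3 H2-Aa counts, or 0) and tested over all genes that passed filterByExpr with edgeR 4.0.16 (TMM, glmQLFit and glmQLFTest, library as block), two-sided. P-values were adjusted by Benjamini-Hochberg, and adjusted values under 0.05 were called. The block is the library from which both sums come. H2-Aa was not tested. CPM is per 1000000 counts of the summed cells. The SE given with an edgeR log2 fold change is its absolute value divided by the square root of the F statistic of its test, an approximate value. Fits were tested on simulated data. Alternatives were DESeq2 1.42.0, RLE size factors, no filter, no block, each library left out, limits of 1 and 10 H2-Aa counts, cells thinned to 30000 counts (13 shallower cells left out), limma 3.58.1 on the mean over cells of log2(CPM + 10), the runs kept, and cells with other-type markers left out. Share intervals are exact (Clopper-Pearson, 95%), and a share of 0 allows up to 3 divided by the number of cells. The H2-Aa rule, gene lists and comparisons were chosen with earlier results of these data known, so patterns already seen in them are no independent support. Named genes are the tested class II genes, the 5 with the lowest p in each direction when none is called, the 2 highest members of each list, the sorting antigens and the 5 genes most like H2-Aa. Other genes named for an unadjusted p under 0.05 (H2-D1, H2-T22, Psmb9, Psme2, Igtp, Cxcl10, Ifit3, Pf4, Chaf1b, Ndn, Nkx2-3, Ier2, Ier3) and the HSC markers Hlf, Mecom and Pdzk1ip1 fall outside it, the first 13 chosen after their values were seen. Values of 2 genes of these lists are not reported here. Gene positions came from GENCODE M21, promoters from RefSeq.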

Additional observations from a re-analysis of the deposited data

Results flagged for a closer look

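In 23 of the 160 groups of 4 libraries examined, 1 library lay far from the other 3 by Dixon's test. The rate of about 1 in 20 holds for normally distributed values. Sparse genes with values at or near 0 need not follow it, so 23 cannot be read as an excess. Several rest on 1 cell. In H2-Aa-positive cells, the Lgmn value of library 1 was 15.8 CPM against 0 in the others, Cd83 in library 3 was 14.8 CPM, Cr2 (complement receptor 2) in library 3 was 23.5 CPM, Nkg7 in library 1 was 9.30 CPM and Rfx1 in library 2 was 0.415 CPM, each from 1 cell. In cells with 0 H2-Aa counts, Lgmn in library 2 was 11.3 CPM and Cd14 in library 4 was 0.156 CPM, each from 1 cell.

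The others drew on more than 1 cell, but 1 cell gave much of the value in some. In cells with 0 of library 2, 1 cell gave 62.5% of Lasp1, 58.7% of Rfx1 and 53.2% of Nkg7. In H2-Aa-positive cells the lowest were Kit in library 4, at 118 CPM against 240 to 254 in the others, and H2-K1 in library 4, at 4099 CPM against 4934 to 5015. The highest were Irf1 in library 2, at 388 CPM, and Hipk1 in library 2, at 77.7 CPM against 14.8 to 24.6. In cells with 0 the lowest were H2-Eb1 in library 3, at 8.66 CPM against 46.8 to 51.1, Lasp1 in library 2 at 19.5 CPM, Bst2 in library 4 at 182 CPM and Rps27 in library 4 at 6071 CPM. The highest in cells with 0 were, in library 2, Irf1 at 392.5 CPM, Ifi47 at 535 CPM against 172 to 222, Procr at 423 CPM, Rfx1 at 19.2 CPM and Nkg7 at 14.3 CPM. Irf8 in library 1 stood at 49.9 CPM, Car2 in library 3 at 3228 CPM and Blvrb, a haem pathway reductase, in library 3 at 264 CPM, of which 1 cell gave 60.0%. Irf1 was high in library 2 on both sides, but 1 cell gave 48.9% of it in positive cells and 17.9% in cells with 0.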

How the results depend on the processing

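The log2 fold changes of the 5 class II genes were above 0 under all 14 alternatives, and of 79 named genes 49 never changed sign. Higher genes numbered 19 with DESeq2, 4 with limma on the mean over cells, 1 on thinned cells and 0 to 1 with a library left out. Lower genes numbered 61 with DESeq2. The other alternatives called 0 in both directions. H2-Ab1 was called with DESeq2 (3.45) and limma (2.76), Cd74 with limma (3.17), and with a library left out they ran from 2.55 to 4.18 and 1.61 to 2.68. Without the replicate block 0 genes were called, with H2-Ab1 at 3.02 and Cd74 at 2.35. With 1 H2-Aa count enough, the share of positive cells was 36.6%. The cause of these differences was not tested. Ciita, with a count in 2 positive cells and 4 cells with 0, was too rare to compare.

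The signs that changed belong to genes that were not called. With limma they were Ctsl 0.033, Lgmn 0.011, Creb1 0.20, Apoe -0.091, Mef2c 0.056, Bcl11a 0.30, Top2a 0.0072, Fos 0.10, Cd68 0.076, Klrb1c 0.22 and Egfl7 0.16. With DESeq2 they were Lgmn 1.24, Fos 0.018 and Klrb1c 0.0010, and with RLE factors Fos 0.018. Without the block they were Nfyc 0.0098, Fos 0.00295, Cd68 0.51 and Klrb1c 0.25. With a limit of 1 count they were Ctsb -0.13, Creb1 0.083, Irf1 -0.23, Pcna 0.16, Tie1 0.073 and Ly6a -0.00553, and with 10 counts Irf1 -0.0318 and Klrb1c 0.017. On thinned cells they were March8 -0.58, Cd68 0.31, Ly6a -0.041 and Kit -0.0090. With the runs kept they were March8 -0.468 and Irf1 -0.018, and without cells of other-type markers Irf1 -0.026 and Klrb1c 0.095. With a library left out, ranges that cross 0 were H2-Ob -0.39 to 1.41, March8 -1.70 to 2.29, Ciita -0.41 to 2.43, Rfxank -1.002 to 0.056, Nfya -1.32 to 0.63, Creb1 -0.65 to 0.095, Spi1 -0.29 to 0.16, Irf1 -0.081 to 0.10, B2m -0.027 to 0.13, Cd9 -0.10 to 0.25, Bcl11a -0.63 to 0.077, Pcna -0.21 to 0.11, Cdk1 -0.13 to 1.46, Ccnd2 -0.14 to 0.054, Fos -0.17 to 0.12, Cr2 -0.93 to 1.49, Cd68 -1.05 to 0.72, Klrb1c -0.30 to 0.35, Nkg7 -3.21 to 0.0068 and Egfl7 -0.34 to 0.048.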
